A study of Mus musculus with 2 samples.

Results

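Cytokine receptors and the receptor tyrosine kinase *Kit* were followed across the endothelial and immune cells of single-cell libraries from control and *Maf* LSEC-KO livers. The 10 genes were taken by symbol from the 32285 genes of the count tables. They are *Kit*, *Il1r1*, *Il6st*, *Il4ra*, *Il13ra1*, *Il13ra2*, *Ifngr1*, *Ifnar1*, *Csf2rb* and *Csf2rb2*. All 10 were measured in both libraries.

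Cytokine receptors carry signals from secreted proteins into the cell, mostly through Janus kinases and STAT transcription factors. Most work as pairs, so that a chain that binds the cytokine needs a second chain to signal: IL6ST (gp130) serves the whole IL-6 family, and CSF2RB is the shared beta chain for GM-CSF, IL-3 and IL-5. KIT differs from the others in that it is itself a kinase, and its ligand is stem cell factor. Liver sinusoidal endothelial cells (LSECs) line the sinusoids between portal and central veins and sit between the blood and the hepatocytes, where they meet cytokines from Kupffer cells, the resident macrophages of the liver. In the mouse, *Kit* is a known marker of LSECs near the central vein, and *Csf2rb* is best known from myeloid cells.

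Each library held CD146-selected liver endothelial cells pooled from 3 mice, and there was 1 library per condition. The *Maf* LSEC-KO mice carried *Clec4g-iCre* tg/wt and *Maf* fl/fl, so that recombination was restricted to cells in which the *Clec4g* promoter had been active. Control mice were littermates without the Cre transgene (*Clec4g-iCre* wt/wt) and carried *Maf* fl/fl or *Maf* fl/wt, and the mix of these in the pool is not given by the labels. The mice of the study were 3 and 6 months old and of both sexes, and the age of the pools is not given. *Xist*, the RNA of the inactive X chromosome, was at 0.0910 CPM (UMIs of the gene in 1000000 UMIs) in control and 0.281 CPM in *Maf* LSEC-KO LSECs. The Y-linked *Ddx3y* was at 126 and 69.6 CPM. By these values the LSECs of both pools read as male, which is given here because *Il13ra1* and *Il13ra2* are X-linked.

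The control library held 47681895 UMIs (unique molecular identifiers, each a counted RNA molecule) in 5664 barcodes, and the *Maf* LSEC-KO library 89872764 UMIs in 7091 barcodes. The libraries shared 7 barcodes among the cells kept. LSECs were the endothelial-like cells without a UMI of *Vwf*, a gene of larger vessels. There were 4110 in control, with a median of 8395 UMIs, and 3120 in *Maf* LSEC-KO, with a median of 14191 UMIs. The *Vwf* filter removed 3.77% of endothelial-like cells in control and 26.7% in *Maf* LSEC-KO. *Pecam1*, *Stab1* and *Clec4g* were detected in the LSECs of both libraries, and *Maf* itself was at 3463 CPM in control and 123 CPM in *Maf* LSEC-KO. Levels are given in CPM, from UMIs summed over the cells of a class, with mitochondrial and ribosomal protein genes left out of the total. With 1 library per condition there is no test between conditions. All intervals are at the 95% level and cover counting error only, not the differences between mice or between libraries.

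The 10 genes lie on 8 chromosomes of the mouse genome (GRCm38, annotation M21), and all are protein-coding. *Csf2rb* (chromosome 15, 78325752 to 78353847, plus strand) and *Csf2rb2* (chromosome 15, 78282507 to 78305721, minus strand) are neighbours that point away from each other, with 20030 bases between them. Their longest coding transcripts shared 28.0% (*Csf2rb*) and 29.0% (*Csf2rb2*) of all stretches of 31 bases, but in the last 1000 bases, near which 3′ libraries take their reads, both shared 2.78%. Reads from shared stretches fit both genes, and the split between these neighbours is less certain than the other values. *Kit* lies on chromosome 5 (75574916 to 75656722, plus strand), *Il6st* on chromosome 13 (112464070 to 112510086, plus strand), *Il1r1* on chromosome 1 (40225080 to 40317257, plus strand) and *Il13ra2* on chromosome X (147383476 to 147429192, minus strand).

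Promoters were available for 9 of the 10 genes from RefSeq (GRCm38.p6), with *Csf2rb* missing. The 250 bases before each start site were searched on both strands for the core of the Maf recognition element (TGCTGA), the AP-1 site (TGANTCA), the GATA site (AGATAA, with the variant TGATAA) and the STAT site known as GAS (TTCNNNGAA). The Maf core and the AP-1 site can overlap, since both contain TGA. The Maf core was found in 1 of 9 genes (*Il1r1*), against 16.1% of 32851 promoters. The AP-1 site was found in 1 (*Il13ra2*), against 6.75%. GATA sites were found in 2 (*Il13ra2* and *Csf2rb2*), against 16.6%, and GAS in 1 (*Csf2rb2*), against 7.02%. The 3 promoters with a match are printed below because they belong to genes that differed at least 2-fold between the libraries in LSECs. Capitals mark the matches, and each line runs 5′ to 3′ on the gene's strand up to the base before the start site.
Il1r1, chr1:40224830-40225079, plus strand: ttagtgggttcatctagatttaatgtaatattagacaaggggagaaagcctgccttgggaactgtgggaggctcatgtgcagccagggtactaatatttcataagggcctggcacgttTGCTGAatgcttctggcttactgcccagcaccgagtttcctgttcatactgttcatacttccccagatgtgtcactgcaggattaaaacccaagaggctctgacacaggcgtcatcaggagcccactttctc
Il13ra2, chrX:147429193-147429442, minus strand: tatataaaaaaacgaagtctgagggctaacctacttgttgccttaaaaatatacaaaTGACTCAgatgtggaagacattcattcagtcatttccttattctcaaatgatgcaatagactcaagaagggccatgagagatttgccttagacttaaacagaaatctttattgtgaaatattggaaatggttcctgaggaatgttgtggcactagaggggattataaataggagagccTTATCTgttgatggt
Csf2rb2, chr15:78305722-78305971, minus strand: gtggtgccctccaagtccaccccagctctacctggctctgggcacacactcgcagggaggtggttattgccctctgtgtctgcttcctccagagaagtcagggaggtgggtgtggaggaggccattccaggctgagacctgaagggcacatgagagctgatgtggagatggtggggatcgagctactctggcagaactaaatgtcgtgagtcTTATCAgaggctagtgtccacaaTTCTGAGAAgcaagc

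In the printed *Il1r1* promoter the Maf core spans bases -132 to -127 from the start. The promoter of another *Il1r1* start site (chr1:40266336-40266585) had no match. In the *Il13ra2* promoter the AP-1 match lies at -193 to -187 and the GATA match at -15 to -10. In the *Csf2rb2* promoter the GATA match lies at -38 to -33, and the GAS match at -15 to -7. A match is a description of letters and not of binding.

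In LSECs, 5 of the 10 genes were at least 2-fold lower in *Maf* LSEC-KO than in control (*Kit*, *Il1r1*, *Il6st*, *Il4ra* and *Il13ra2*), and 2 were at least 2-fold higher (*Csf2rb* and *Csf2rb2*). *Il13ra1*, *Ifngr1* and *Ifnar1* differed by less. Among all 9295 genes measured well enough in LSECs (at least 10 CPM in either library and 20 UMIs over both), 4.78% were at least 2-fold lower and 10.3% at least 2-fold higher. The median log2 ratio was -0.87 over the 10 genes and 0.13 over all genes measured. Scaling by the median of ratios, by TMM or by the UMIs of all genes moved every ratio by -0.13, -0.12 and -0.19 on the log2 scale, and no direction changed under any of them for the 10 genes.

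**Figure D1:**
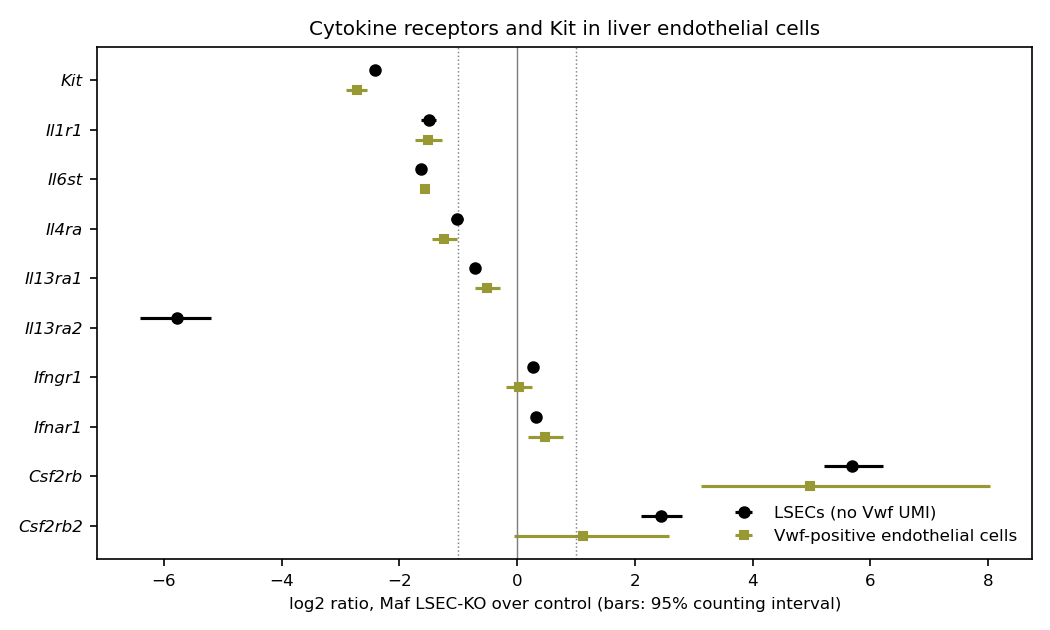
Log2 ratio of each gene's level in Maf LSEC-KO over control (x axis) in LSECs (black circles) and in endothelial cells with a Vwf UMI (squares), with the 95% counting interval as bars and dotted lines at 2-fold. Il13ra2 (-5.77) and Csf2rb (5.69) lie farthest from 0 in LSECs, and Il13ra2 has no square because the Vwf-positive cells of Maf LSEC-KO held 0 UMIs of it.

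*Kit* had 12073 UMIs in control LSECs, a level of 366 CPM (interval 360 to 373). In *Maf* LSEC-KO it had 2699 UMIs, or 69.0 CPM (66.4 to 71.7). The level was 5.31-fold lower, which is -2.41 on the log2 scale (-2.47 to -2.35). At least 1 UMI of *Kit* was found in 59.0% of control LSECs and in 34.1% of *Maf* LSEC-KO LSECs. When every cell was thinned to 2700 UMIs, these shares were 41.0% and 10.8%. Cells below that depth were left out, 406 in control and 168 in *Maf* LSEC-KO. The upper end of the distribution differed as well. In control, 1405 of 4110 LSECs held 3 or more *Kit* UMIs, against 343 of 3120 in *Maf* LSEC-KO, in cells that were deeper. *Kitl*, which encodes stem cell factor, stood in LSECs at 142 CPM in control and 189 CPM in *Maf* LSEC-KO (log2 ratio 0.42, 0.36 to 0.47).

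*Il1r1*, the signalling receptor for IL-1, was 2.83-fold lower in *Maf* LSEC-KO LSECs, at 19.5 CPM (18.1 to 20.9) against 55.0 CPM (52.5 to 57.6) in control. The log2 ratio was -1.50 (-1.62 to -1.38). UMIs were found in 29.0% of LSECs in control and 17.9% in *Maf* LSEC-KO. At equal depth these shares were 11.1% and 4.61%. *Il1rap*, the accessory chain that *Il1r1* needs, was low in both, at 5.64 and 5.37 CPM. *Il1a*, one of the ligands, was at 104 CPM in control and 90.3 CPM in *Maf* LSEC-KO LSECs.

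*Il6st*, the shared signalling chain of the IL-6 family, was well detected in LSECs of both libraries. Its level was 1624 CPM (1611 to 1638) in control. In *Maf* LSEC-KO it was 527 CPM (520 to 534), which was 3.08-fold lower and gave a log2 ratio of -1.62 (-1.65 to -1.60). It remained detectable in most cells, in 96.8% of control and 90.4% of *Maf* LSEC-KO LSECs. The median LSEC held 10 *Il6st* UMIs in control and 5 in *Maf* LSEC-KO. At 2700 UMIs per cell the shares were 93.5% and 61.2%. *Il6ra*, the chain that binds IL-6 itself, was at 4.03 CPM in control and 3.53 CPM in *Maf* LSEC-KO LSECs, whereas *Lifr*, the chain for LIF that pairs with gp130, was at 1460 and 543 CPM.

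The receptors for IL-4 and IL-13 share *Il4ra*, which signals with *Il2rg* in response to IL-4 or with *Il13ra1* in response to either cytokine. *Il13ra2* binds IL-13 with high affinity and is regarded as a decoy. The 3 genes of this group differed in size of change. The level of *Il4ra* was 67.5 CPM (64.8 to 70.4) in control LSECs. In *Maf* LSEC-KO it was 33.3 CPM (31.5 to 35.2), and the log2 ratio of -1.02 had an interval (-1.12 to -0.92) that includes the 2-fold limit. *Il13ra1* was at 128 CPM (125 to 132) and 78.4 CPM (75.6 to 81.2), a log2 ratio of -0.71 (-0.78 to -0.65). *Il13ra2* had 1150 UMIs in control LSECs and 25 in *Maf* LSEC-KO LSECs.

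The level of *Il13ra2* was thus 34.9 CPM (32.9 to 37.0) in control LSECs and 0.639 CPM (0.414 to 0.944) in all *Maf* LSEC-KO LSECs. This was 54.6-fold lower, with a log2 ratio of -5.77 (-6.40 to -5.20). In control, 650 of 4110 LSECs (15.8%) held a UMI of it. In *Maf* LSEC-KO, 12 of 3120 LSECs did (0.385%), and these few cells held up to 4 UMIs each. *Il2rg*, the common gamma chain, stood in LSECs at 22.6 CPM in control and 32.2 CPM in *Maf* LSEC-KO (log2 ratio 0.51, 0.38 to 0.64). Stellate cell RNA also differed between the libraries: the summed level of 10 stellate and mesenchymal marker genes in LSECs was 570 CPM in control and 345 CPM in *Maf* LSEC-KO, with *Dcn* at 76.4 and 2.69 CPM. Without the LSECs that held UMIs of at least 2 of these genes, the log2 ratio of *Il13ra2* was -5.85.

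*Ifngr1* and *Ifnar1*, chains of the receptors for interferon-gamma and for type I interferons, stayed within 2-fold. *Ifngr1* stood at 87.2 CPM (84.0 to 90.4) in control LSECs and 105 CPM (102 to 108) in those of *Maf* LSEC-KO, with a log2 ratio of 0.26 (0.20 to 0.33). *Ifnar1* stood at 66.6 CPM (63.9 to 69.5) and 83.5 CPM (80.6 to 86.4), with a log2 ratio of 0.33 (0.25 to 0.40). Under the other scalings the log2 ratios came down to 0.07 for *Ifngr1* and 0.13 for *Ifnar1*. The share of LSECs with an *Ifngr1* UMI was 43.3% in control and 61.2% in *Maf* LSEC-KO, but 16.9% and 19.6% at equal depth. That of *Ifnar1* was 35.8% and 53.8%, but 14.1% and 15.4% at equal depth, so most of the gap in these shares went with depth. Their partner chains also stayed within 2-fold, with *Ifngr2* at 90.0 and 107 CPM and *Ifnar2* at 202 and 180 CPM.

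Fewer RNA molecules per cell and fewer cells with the RNA cannot be told apart in a summed level, so shares of cells are given with it. *Csf2rb* was close to the limit of detection in control LSECs and well detected in *Maf* LSEC-KO LSECs. Control LSECs held 36 UMIs of it in 4110 cells, or 1.09 CPM (0.765 to 1.51), and *Maf* LSEC-KO LSECs held 2211 UMIs in 3120 cells, or 56.5 CPM (54.2 to 58.9). This was a 51.8-fold higher level, and the log2 ratio was 5.69 (5.22 to 6.21). Only 34 control LSECs (0.827%) held a UMI, of which 32 held exactly 1. In *Maf* LSEC-KO, 1006 LSECs (32.2%) held a UMI, 502 of them exactly 1, 256 exactly 2 and 248 at least 3, up to 19. At 2700 UMIs per cell the shares were 0.108% and 9.08%.

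*Csf2rb2*, which encodes a beta chain specific for IL-3 in the mouse, had 83 UMIs in control LSECs, or 2.52 CPM (2.01 to 3.12). With 536 UMIs it was at 13.7 CPM (12.6 to 14.9) in *Maf* LSEC-KO LSECs, 5.44-fold higher, with a log2 ratio of 2.44 (2.11 to 2.80). The alpha chains that pair with them are *Csf2ra* and *Il3ra*. *Csf2ra*, for GM-CSF, stood in LSECs at 2.21 CPM in control and 3.96 CPM in *Maf* LSEC-KO, under the minimum for a call. *Il3ra*, for IL-3, was at 79.2 and 69.6 CPM, a log2 ratio of -0.19 (-0.27 to -0.11).

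Myeloid cells also carried *Csf2rb* in these libraries, and their markers in LSECs summed higher in *Maf* LSEC-KO for 4 of 5 lists. The summed level of 11 Kupffer cell genes in LSECs was 72.6 CPM in control and 115 CPM in *Maf* LSEC-KO, and that of 9 neutrophil genes was 8.34 and 29.0 CPM. The 9 monocyte genes summed to 80.5 and 166 CPM, of which *Plac8* alone gave 63.3 and 136 CPM. The 8 dendritic cell genes summed to 175 and 111 CPM. The 6 plasmacytoid dendritic cell genes summed to 1045 and 1311 CPM, of which *Bst2* alone gave 1044 and 1311 CPM, and *Siglech*, a defining gene, was at 0.0910 and 0 CPM. None of the Kupffer cell genes was at 0 in either library. This was set against the Kupffer cell-like level for 6 of the 11 genes only (*C1qa*, *Clec4f*, *Csf1r*, *Cd5l*, *Adgre1* and *Marco*). In *Maf* LSEC-KO they stood in LSECs at between 0.386% and 0.533% of that level, whereas *Csf2rb* stood at 50.3%. Of its level in monocyte/dendritic cell-like cells *Csf2rb* stood at 33.2%, *Plac8* at 6.84% and the other 8 monocyte genes at between 0.0912% and 2.95%. Some genes stood higher than *Csf2rb*. On the neutrophil list *Retnlg* was at 80.1%, *S100a9* at 53.9% and *S100a8* at 40.7%, and the others were lower or had no UMI in that class. Of the level in neutrophil-like cells of *Maf* LSEC-KO, *Csf2rb* stood at 21.1%, *S100a8* at 0.0155%, *S100a9* at 0.0184% and *Csf3r* at 0.0865%. The remaining lists are again set against monocyte/dendritic cell-like cells. On the dendritic cell list *Zbtb46* was at 135% and the others at between 0.0405% and 4.85%. On the plasmacytoid list *Bst2* was at 168% and the others at 0.167% or less. In control *Csf2rb* stood at 1.04% of its Kupffer cell-like level, and the 6 Kupffer cell genes at between 0.283% and 0.862%. When LSECs with any UMI of *Adgre1*, *Clec4f*, *Ptprc*, *Cd52*, *Acta1* or *Arg1* were left out, the log2 ratio of *Csf2rb* was 5.70.

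**Figure D2:**
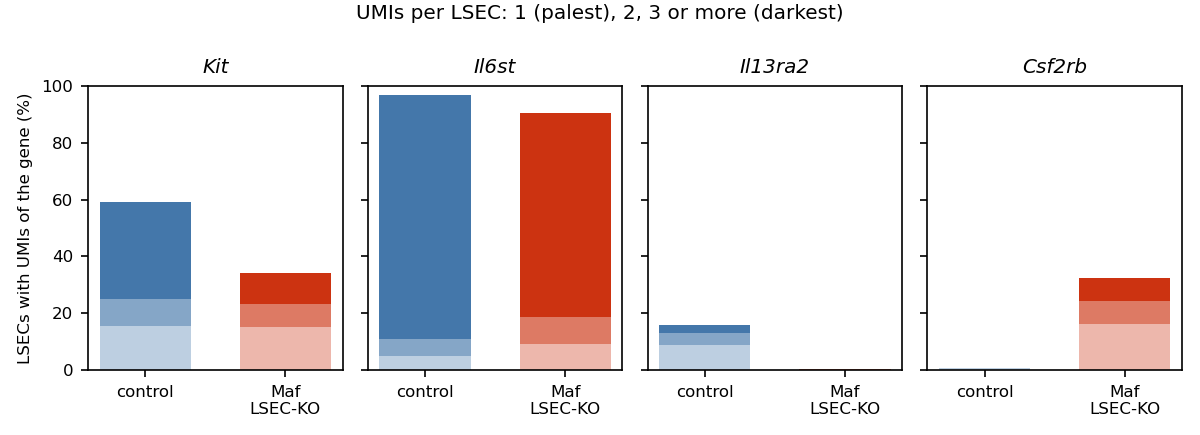
Share of LSECs in percent (y axis) that held 1, 2 or at least 3 UMIs of Kit, Il6st, Il13ra2 and Csf2rb, from the palest to the darkest part of each bar, in control (4110 LSECs, blue) and Maf LSEC-KO (3120 LSECs, red). A UMI of Csf2rb was found in 32.2% of LSECs in Maf LSEC-KO and in 0.827% in control, and one of Il13ra2 in 0.385% and 15.8%.

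The 10 genes were left out of the genes used for clustering, so that the clusters of each library were formed without them. Among control LSECs, *Kit* ranged from 17.9 CPM (11.4 to 26.9) in cluster 6, led by *Igfbp5*, *Nrg1* and *Jag1*, to 739 CPM (713 to 765) in cluster 3, led by *Rspo3*, *Bmp4* and *Wnt9b*. In cluster 3, 92.6% of LSECs held a *Kit* UMI, and in cluster 6, 9.04% did. In *Maf* LSEC-KO, *Kit* was lowest in cluster 5 (6.0 CPM, 2.59 to 11.8), which like control cluster 6 was led by *Nrg1*, *Jag1* and *Atp13a3*. It was highest in cluster 6, at 273 CPM (249 to 300), where *Maf* itself was among the leading genes. The other *Maf* LSEC-KO clusters with over 100 LSECs lay between 51.1 and 71.0 CPM.

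*Csf2rb* was spread over the *Maf* LSEC-KO clusters. It was at 76.0 CPM (70.9 to 81.4) in cluster 0, led by *Astn1*, *Depp1* and *Kcnj2*, at 63.8 CPM (58.0 to 70.1) in cluster 2, led by genes of S phase, at 52.5 CPM (48.6 to 56.6) in cluster 1, and at 41.1 CPM (35.9 to 46.9) in cluster 4, led by genes of mitosis. Cluster 5 held 29.3 CPM (20.8 to 40.0). The lowest level among clusters with over 100 LSECs was 7.73 CPM (4.11 to 13.2) in cluster 6. No control cluster exceeded 2.34 CPM. *Il13ra2* had the opposite pattern: all 25 of its UMIs in *Maf* LSEC-KO LSECs were in cluster 6 (14.9 CPM, 9.61 to 21.9), and the other 6 clusters held 0. This allows a level of at most 0.279 CPM in cluster 0 and 2.25 CPM in cluster 5. In cluster 7, with 10 LSECs, it allows 40.4 CPM, above the 34.9 CPM of all control LSECs. In control *Il13ra2* was present in every cluster, at 20.3 CPM in cluster 6 and up to 60.8 CPM in cluster 3.

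*Il6st* was highest in cluster 6 of control (2511 CPM) and lowest in the cycling cluster 7 (1009 CPM). In *Maf* LSEC-KO it was again low in the cycling clusters 2 and 4, at 365 and 288 CPM, against 1447 CPM in cluster 6. *Il1r1* was at 54.8 CPM in cluster 5 and 53.5 CPM in cluster 6 of *Maf* LSEC-KO and between 8.49 and 23.7 CPM in clusters 0, 1, 2 and 4. Its levels in clusters 5 and 6 were therefore close to the 55.0 CPM of all control LSECs. Cluster 5 was led by *Gja5*, *Nrg1* and *Npr3*, and 113 of its cells passed the *Vwf* filter.

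LSECs were next ordered from central to portal within each library by 5 central and 6 portal landmark genes that are not among the 10. LSECs without a UMI of any landmark were left out (31 in control and 59 in *Maf* LSEC-KO), and the others were cut by rank into 4 groups of equal size. In control the landmarks separated well, with *Wnt2* at 630 CPM in the most central group and no UMI of it in the most portal. In *Maf* LSEC-KO, *Wnt2* was at 114 CPM in the most central group, so the groups of the libraries are not matched positions. The portal group of control was also shallower, at a median of 4947 UMIs against 8706 in the central group.

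*Kit* showed the steepest gradient of the well-detected genes in control, at 753, 393, 174 and 104 CPM from the most central to the most portal group, a log2 ratio of the ends of 2.86 (2.73 to 2.98). In *Maf* LSEC-KO it was at 93.0, 53.4, 65.5 and 63.2 CPM, a log2 ratio of 0.56 (0.40 to 0.71). The level in the most central *Maf* LSEC-KO group (87.3 to 98.9 CPM) was below that of the most portal control group (95.5 to 113 CPM), but the intervals overlapped. *Il13ra2* also declined toward the portal side in control, at 58.3, 40.3, 22.7 and 13.4 CPM, and in *Maf* LSEC-KO all 25 UMIs lay in the most central group. That group also held the most *Maf*, at 184 CPM against 113, 77.2 and 105 CPM in the next 3, so in *Maf* LSEC-KO the order and the remaining *Maf* RNA cannot be told apart.

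Among the other genes detected well in control, gradients were shallower. *Il1r1* (0.62), *Il4ra* (0.52), *Ifngr1* (0.34) and *Il13ra1* (0.18) had log2 ratios of the ends on the central side, and *Il6st* (-0.27) and *Ifnar1* (-0.28) on the portal side. *Csf2rb2* in control had 1 UMI in the central group and 39 in the portal group, or 0.124 and 7.14 CPM, a log2 ratio of the ends of -5.85 (-11.19 to -3.28), which was farther from 0 than that of *Kit* but rests on few UMIs. *Csf2rb* had 2 and 10 UMIs there (-2.88, -6.11 to -0.65). In *Maf* LSEC-KO, *Csf2rb* was present along the whole order, at 43.4, 63.0, 54.8 and 66.0 CPM, a log2 ratio of the ends of -0.60 (-0.78 to -0.42), so it was somewhat lower at the central end. *Il4ra* kept a central side in *Maf* LSEC-KO (0.42, 0.19 to 0.65).

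**Figure D3:**
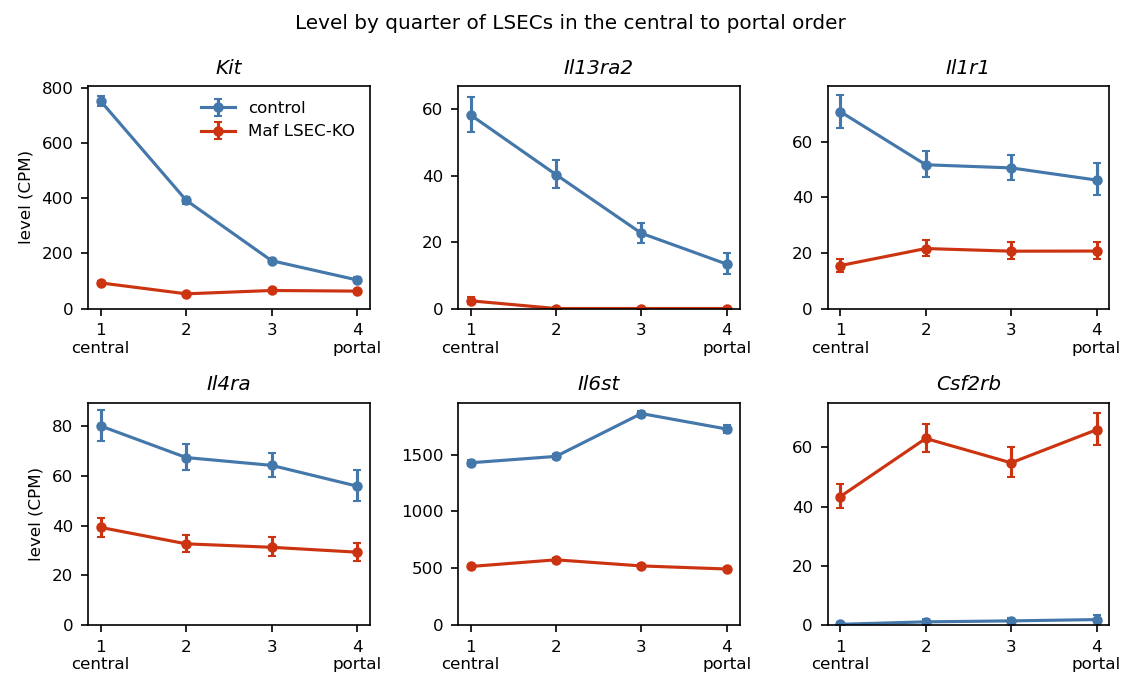
Level in CPM (y axis) of 6 genes in 4 equal groups of LSECs ordered from central (1) to portal (4) by landmark genes, for control (blue) and Maf LSEC-KO (red), with 95% counting intervals as bars. Kit declines from 753 to 104 CPM in control and stays between 53.4 and 93.0 CPM in Maf LSEC-KO.

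The *Maf* LSEC-KO library still held LSECs with *Maf* RNA and allowed a comparison within 1 library. Chosen by *Maf* alone, at least 5 *Maf* UMIs were found in 198 LSECs (median 9924 UMIs per cell), 1 to 4 in 462 (median 17893) and none in 2460 (median 14054). Each of the 5 genes lower by at least 2-fold in *Maf* LSEC-KO was higher in LSECs with at least 5 *Maf* UMIs than with 0. The share of all genes, or of all genes lower in *Maf* LSEC-KO, that did so was not counted. *Kit* was at 246 CPM with at least 5 *Maf* UMIs and 59.2 CPM with 0, a log2 ratio of 2.06 (1.91 to 2.20). *Il6st* was at 1293 and 479 CPM (1.43, 1.37 to 1.49), and *Il1r1* at 43.6 and 17.7 CPM (1.30, 0.95 to 1.63). *Il4ra* was at 58.1 and 31.5 CPM (0.88, 0.59 to 1.16). *Il13ra1*, which was less than 2-fold lower in *Maf* LSEC-KO, was at 128 and 76.2 CPM (0.75, 0.55 to 0.93).

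*Il13ra2* was seen in 23 UMIs among the 198 LSECs with at least 5 *Maf* UMIs (11.5 CPM) and in 0 UMIs among the 2460 with none. Against the limit of 3 counts that a count of 0 allows over that group, it was 115-fold lower in the LSECs without *Maf* UMIs. With the counting error of the 23 UMIs, the interval put the log2 ratio of the former over the latter at 6.42 or above. *Csf2rb* went the other way, at 15.0 CPM in the LSECs with at least 5 *Maf* UMIs and 56.6 CPM in those with none (-1.91, -2.48 to -1.39), and *Csf2rb2* was at 7.02 and 13.9 CPM (-0.99, -1.87 to -0.22). *Ifngr1* was at 93.7 and 107 CPM (-0.19, -0.41 to 0.02) and *Ifnar1* at 66.2 and 84.4 CPM (-0.35, -0.62 to -0.10). The LSECs with 1 to 4 *Maf* UMIs lay close to those with none: their log2 ratios ran from -0.12 for *Ifngr1* to 0.26 for *Csf2rb*, and *Il13ra2* had 2 UMIs. Over all genes measured in this comparison the median log2 ratio was -0.07.

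**Figure D4:**
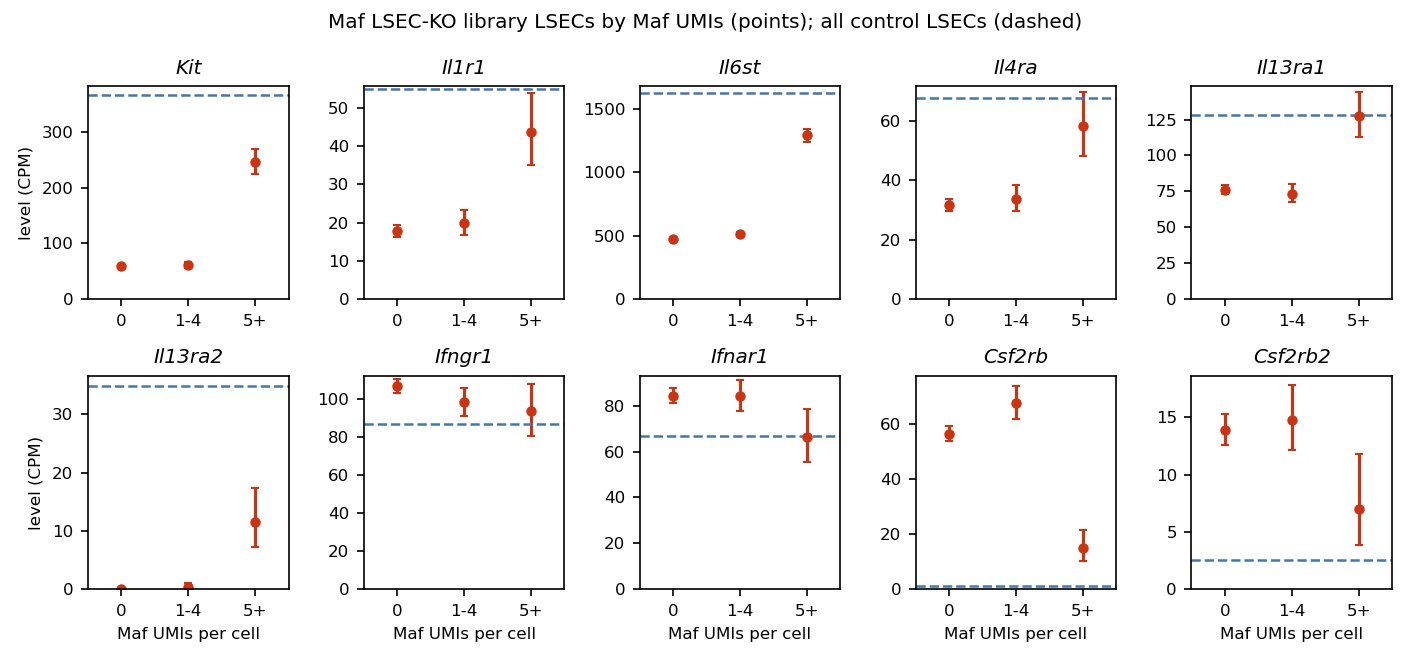
Level in CPM (y axis) of the 10 genes in Maf LSEC-KO LSECs that held 0, 1 to 4 or at least 5 Maf UMIs (2460, 462 and 198 cells), with 95% counting intervals as bars. The dashed line is the level in all control LSECs, and Il13ra1 at 128 CPM in the cells with at least 5 Maf UMIs lies on it, while Csf2rb at 15.0 CPM lies above its control level of 1.09 CPM.

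Endothelial cells with a *Vwf* UMI, 161 in control and 1136 in *Maf* LSEC-KO, were compared as a second endothelial class. Its make-up differed between the libraries. In control, 129 of the 161 cells lay in clusters 3 and 6, which were led by *Rspo3* or *Nrg1*. In *Maf* LSEC-KO, 405 of the 1136 lay in clusters 5 and 7, also led by *Nrg1* or *Rspo3*, and 718 lay in clusters 0, 1, 2 and 4. The clusters led by *Rspo3* were not alike in make-up. Control cluster 3 held 434 LSECs beside 62 *Vwf*-positive cells, and *Maf* LSEC-KO cluster 7 held 10 beside 143. In the class as a whole, 7.12% of 9352 genes were at least 2-fold higher and 4.28% at least 2-fold lower in *Maf* LSEC-KO. *Kit* was at 251 and 38.1 CPM, 6.59-fold lower. *Il6st* was at 2059 and 693 CPM, *Il1r1* at 115 and 40.3 CPM, and *Il4ra* at 133 and 56.4 CPM, with log2 ratios of -1.57 (-1.63 to -1.52), -1.51 (-1.74 to -1.27) and -1.24 (-1.45 to -1.03). *Il13ra2* had 28 UMIs in control and 0 in *Maf* LSEC-KO, 91.3-fold lower against a limit of 3 counts. The interval put its log2 ratio at -6.12 or below. *Csf2rb* had 2 UMIs in control (1.16 CPM) and 615 in *Maf* LSEC-KO (36.4 CPM), a log2 ratio of 4.97 (3.12 to 8.02). The direction in these cells was the same as in LSECs for all 10 genes, and for *Ifngr1* and *Csf2rb2* the interval included 0.

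Within the clusters led by *Rspo3* or *Nrg1* alone, a comparison added after seeing the data, 2.84% of 9189 genes were at least 2-fold lower and 3.65% at least 2-fold higher. There *Kit* was at 227 and 19.9 CPM (log2 ratio -3.51, -3.85 to -3.18) and *Il6st* at 2162 and 1029 CPM (-1.07, -1.14 to -1.01). *Il1r1*, at 124 and 73.3 CPM (-0.75, -1.02 to -0.48), and *Il4ra*, at 151 and 101 CPM (-0.58, -0.81 to -0.34), were no longer 2-fold lower, so their values in the whole class depended on which clusters the cells came from. *Il13ra2* had 18 and 0 UMIs. *Csf2rb* was at 1.47 CPM (2 UMIs) in control and 15.6 CPM (80 UMIs) in *Maf* LSEC-KO (3.41, 1.51 to 6.48). No direction changed among the 10 genes. The mix of these clusters was not matched. Control had 62 cells from cluster 3 and 67 from cluster 6. *Maf* LSEC-KO had 143 from cluster 7 and 262 from cluster 5. In control LSECs *Kit* was at 739 CPM in cluster 3 and 17.9 CPM in cluster 6. The part of this mix in the ratio of *Kit* was not tested.

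The immune cells of the libraries gave a different picture for the receptors that they express themselves. Kupffer cell-like (218 in control and 389 in *Maf* LSEC-KO), neutrophil-like (40 and 86) and B cell-like cells (47 and 39) were compared. Control held only 29 T/NK cell-like cells, too few to compare, and monocyte/dendritic cell-like cells formed a cluster in *Maf* LSEC-KO alone. In Kupffer cell-like cells *Csf2rb* was at 105 CPM in control (89.1 to 123) and 112 CPM in *Maf* LSEC-KO (99.1 to 127), and *Ifngr1* at 349 and 384 CPM, with log2 ratios of 0.10 (-0.19 to 0.40) and 0.14 (-0.02 to 0.30). In neutrophil-like cells *Csf2rb* was at 293 CPM (215 to 390) and 268 CPM (219 to 325), a log2 ratio of -0.13 (-0.64 to 0.40). *Il4ra* and *Il13ra1* had intervals that included 0 in both classes.

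Of the 10 genes, 9 differences of at least 2-fold were counted over the 3 immune classes, and all were lower in *Maf* LSEC-KO. They were *Kit*, *Il1r1*, *Il6st* and *Il13ra2* in Kupffer cell-like cells, *Kit*, *Il1r1*, *Il6st* and *Il13ra1* in B cell-like cells, and *Il6st* in neutrophil-like cells. Some rest on few UMIs. *Kit* had 127 UMIs in B cell-like cells of control and 0 in *Maf* LSEC-KO, 21.3-fold lower against a limit of 3 counts. The interval put its log2 ratio there at -4.09 or below. *Il13ra2* had 19 UMIs and 1 in Kupffer cell-like cells, a log2 ratio of -4.87 (-10.25 to -2.22), and *Il1r1* 22 UMIs and 1 in B cell-like cells (-3.47, -8.83 to -0.84). Genes under the minimum for a call went both ways. *Csf2rb* in B cell-like cells was higher, with 5 and 14 UMIs (2.48, 0.92 to 4.30). *Kit* in neutrophil-like cells (16 and 0 UMIs) and *Il13ra2* in B cell-like cells (13 and 0 UMIs) were lower. The share of all genes at least 2-fold lower was 7.48% in Kupffer cell-like, 19% in B cell-like and 9.03% in neutrophil-like cells, and at least 2-fold higher 3.83%, 6.86% and 5.14%. RNA of LSECs was present in these droplets and differed between the libraries. The median level of 6 LSEC genes (*Clec4g*, *Ptprb*, *Egfl7*, *Kdr*, *Cdh5* and *Eng*) in Kupffer cell-like cells was 29.7% of their LSEC level in control and 13.7% in *Maf* LSEC-KO. It was 67.6% and 23.1% in B cell-like cells and 11.8% and 7.47% in neutrophil-like cells.

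In Kupffer cell-like cells of control, *Kit* was measured at 107 CPM, *Il6st* at 475 CPM and *Il1r1* at 16.7 CPM. Those percentages of the LSEC level alone give 109, 483 and 16.4 CPM. In *Maf* LSEC-KO the same genes were measured at 4.34, 117 and 2.17 CPM, and the percentage gives 9.42, 72.0 and 2.66 CPM. After subtraction, *Kit* and *Il1r1* were at or below 3 counts in Kupffer cell-like cells of both libraries, and *Il6st* was at 0 in control and 44.8 CPM in *Maf* LSEC-KO, the reverse of its direction before. With subtraction 7 differences of at least 2-fold were counted. Only *Kit* in B cell-like cells was lower. The 6 higher were *Il6st* and *Il13ra1* in Kupffer and in B cell-like cells, and *Ifngr1* and *Ifnar1* in B cell-like cells. The subtraction also moved genes outside the 10. Of all genes left, 51.7% in B cell-like, 14.8% in Kupffer cell-like and 9.38% in neutrophil-like cells were then at least 2-fold higher, and 6.96%, 4.34% and 9.64% at least 2-fold lower. In B cell-like cells, 4 of the 7 genes still measured well enough were higher, close to the share of all genes. The lower levels measured in immune cells and the RNA of LSECs in their droplets cannot be told apart.

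**Figure D5:**
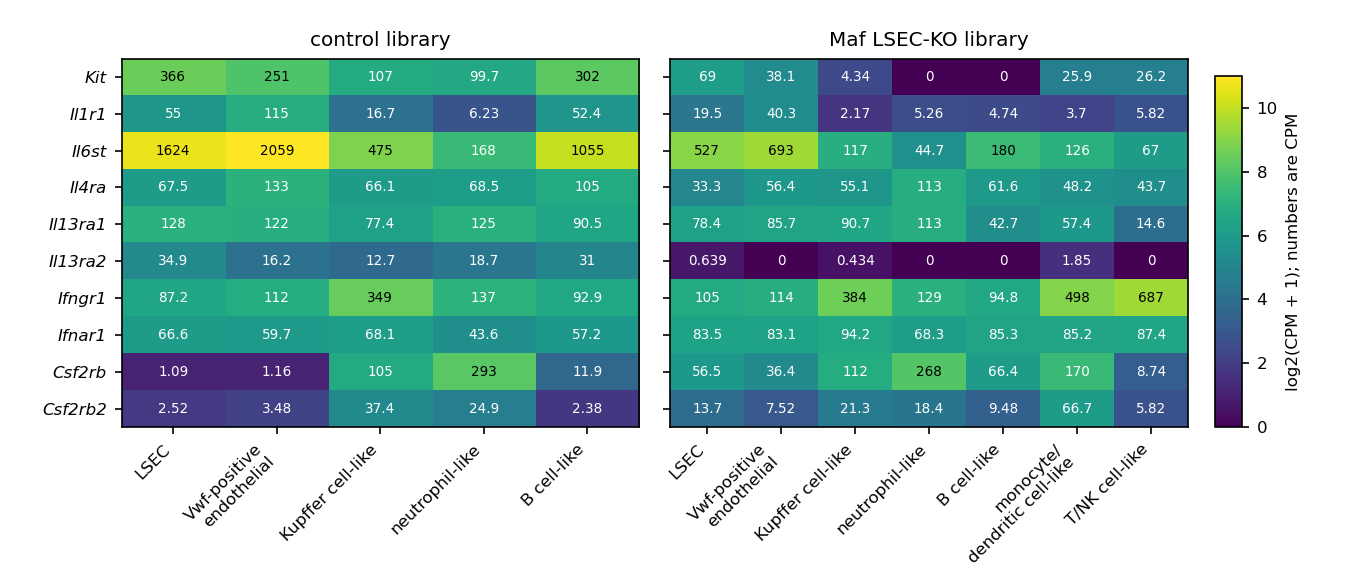
Level in CPM (numbers, colour on a log2(CPM + 1) scale) of the 10 genes in the endothelial and immune classes of at least 30 cells in the control and Maf LSEC-KO libraries. Csf2rb is at 293 and 268 CPM in neutrophil-like cells of both libraries, and at 1.09 CPM in control and 56.5 CPM in Maf LSEC-KO LSECs.

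Within a library, the order of the classes separated genes of endothelial cells from genes of immune cells. *Il6st* was highest in *Vwf*-positive endothelial cells in both libraries, followed by LSECs, without overlap of the intervals. *Kit* was highest in LSECs in both. In control its interval overlapped that of B cell-like cells (302 CPM, 252 to 360), which held LSEC RNA as given above. In *Maf* LSEC-KO it overlapped that of the mixed clusters (62.1 CPM, 50.3 to 75.7), which are otherwise left out. *Il1r1* was higher in *Vwf*-positive endothelial cells than in LSECs in both libraries (115 against 55.0 CPM in control, and 40.3 against 19.5 CPM in *Maf* LSEC-KO). In *Maf* LSEC-KO its highest level was in the cholangiocyte/hepatocyte-like cells, at 72.6 CPM (51.3 to 99.6).

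*Ifngr1* was highest in T/NK cell-like cells (687 CPM, 602 to 781), then in monocyte/dendritic cell-like cells (498 CPM, 440 to 561) and Kupffer cell-like cells (384 CPM, 359 to 410) of *Maf* LSEC-KO, none of which overlapped with the next. LSECs were among the lowest, at 105 CPM. *Ifnar1* varied little: apart from the cholangiocyte/hepatocyte-like cells (34.4 CPM), the classes of *Maf* LSEC-KO lay between 68.3 and 94.2 CPM, and each overlapped with its neighbour. *Il13ra1* likewise had overlapping neighbours throughout in both libraries.

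*Csf2rb* in *Maf* LSEC-KO was ordered from neutrophil-like (268 CPM) through monocyte/dendritic cell-like (170 CPM, 137 to 209) and Kupffer cell-like cells (112 CPM) to B cell-like cells (66.4 CPM, 36.3 to 111) and LSECs (56.5 CPM), with the interval of the last overlapping that of B cell-like cells. The T/NK cell-like class was at 8.74 CPM (1.80 to 25.5). In control the order had neutrophil-like and Kupffer cell-like cells at the top, and LSECs last. *Csf2rb2* was highest in monocyte/dendritic cell-like cells (66.7 CPM, 46.7 to 92.3). Cells with a *Csf2rb* UMI made up 64.0% of neutrophil-like, 58.6% of monocyte/dendritic cell-like and 34.4% of Kupffer cell-like cells in *Maf* LSEC-KO, against 32.2% of LSECs. These shares are not at equal depth, with a median of 4554 UMIs in Kupffer cell-like cells and 14191 in LSECs, so they do not rank the classes. In T/NK cell-like cells, a class not known for *Csf2rb*, the share was 4.84% from 3 UMIs in 62 cells. The median depth there was 5860 UMIs. The 8.74 CPM there is below the 12.7 CPM that the LSEC RNA in these droplets alone gives.

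The rest of the receptor pathways was followed with 5 gene lists, which held 121 genes beside the 10. Of these, 72 were measured well enough in LSECs, and 4 were at least 2-fold lower and 6 at least 2-fold higher in *Maf* LSEC-KO. Over all genes the shares were 4.78% lower and 10.3% higher, so these counts are near the background. Their median log2 ratio was 0.05, against 0.13 over all genes. Of 18 ligands, only *Kitl* and *Il1a* reached the minimum in LSECs, and neither differed 2-fold. *Il6* and *Il13* had 0 UMIs in LSECs of both libraries, which allows at most 0.0910 CPM in control and 0.0767 CPM in *Maf* LSEC-KO.

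Of the partner receptors, 14 of 39 were measured, with 3 at least 2-fold lower and none higher. All 3 are receptors that pair with gp130. *Cntfr*, for CNTF, was at 68.0 CPM in control and 14.0 CPM in *Maf* LSEC-KO (log2 ratio -2.29, -2.42 to -2.15). *Osmr*, for oncostatin M, was at 125 and 26.4 CPM (-2.24, -2.34 to -2.14), and *Lifr* had a log2 ratio of -1.43 (-1.45 to -1.40). The other gp130 partners measured well enough were higher by less than 2-fold. *Il27ra*, the IL-27 chain, was at 36.2 and 67.8 CPM (0.91, 0.81 to 1.01), an interval that includes the 2-fold limit. *Il11ra1*, the IL-11 chain, was at 38.7 and 51.7 CPM (0.42, 0.32 to 0.52). *Il6ra*, under the minimum for a call, was at 4.03 and 3.53 CPM (-0.19, -0.55 to 0.16).

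Of the kinases, adaptors and STATs, 27 of 31 were measured and 1 was at least 2-fold lower. This was *Pik3r1*, the regulatory subunit of PI3 kinase, at 147 and 59.0 CPM (-1.32, -1.39 to -1.25). The other 26 lay within 2-fold, *Jak1* among them at 1440 and 899 CPM. Of the inhibitors of cytokine signalling, 21 of 24 were measured and 1 was at least 2-fold higher, *Socs3*, which is also on the list of genes induced by IL-6 family cytokines. *Socs3* was at 37.1 and 90.6 CPM (1.29, 1.19 to 1.38).

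Of the 14 genes induced by IL-6 family cytokines, 12 were measured, of which 6 were at least 2-fold higher and 2 at least 2-fold lower (*Osmr* and *Il4ra*, the latter 1 of the 10 genes). The median log2 ratio of the 12 was 0.83. The largest were *Junb*, at 149 and 444 CPM (1.58, 1.53 to 1.62), and *Fos*, at 95.9 and 269 CPM (1.49, 1.43 to 1.54), both parts of AP-1, followed by *Socs3* and *Cebpd*, at 103 and 227 CPM (1.15, 1.09 to 1.21). *Fos* and *Junb* also belong to the immediate early and heat shock genes that can rise during tissue digestion. Of 10 such genes, 9 were at least 2-fold higher in *Maf* LSEC-KO LSECs and none lower. The part of handling in the higher genes of the list was not tested. Scaled to the UMIs of all genes, 3 in place of 6 pathway genes were at least 2-fold higher.

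For each of the 10 genes, the 3 genes with the most similar level over 15 profiles (classes of at least 30 cells by library) were found by the Pearson correlation of log2(CPM + 5), as a description only, since the profiles share libraries and LSEC RNA. The highest value was that of *Il6st* with *Armcx4* (0.99), followed by *Lifr* (0.97) and *Acvr1* (0.97). *Il13ra2* was most like *Col13a1* (0.97), *Tpbgl* (0.94) and *Dnase1l3* (0.94), and *Kit* most like *Enho* (0.94), *Id4* (0.93) and *Cyp4b1* (0.93). *Il1r1* went with *Ramp3* (0.96), *Tshz2* (0.94) and *Tns1* (0.93). *Csf2rb* went with *Map3k5* (0.95), *Milr1* (0.90) and *Oasl1* (0.90), and *Csf2rb2* with *Hk2* (0.90), *Irf7* (0.89) and *Gm21188* (0.89). *Ifngr1* was most like *Asb2* (0.95), *Ptger4* (0.93) and *Klrk1* (0.92), and *Ifnar1* like *Adar* (0.93), *Ifi213* (0.85) and *Ripk3* (0.84). *Il4ra* had the weakest likeness, with *H2-T24* (0.84), *Gpr137b* (0.79) and *Sp3* (0.76), and *Il13ra1* was most like *Atp6v0a1* (0.90), *Mpp1* (0.87) and *Tmem50b* (0.87).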

How the data were processed

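Liver endothelial cells were isolated by CD146 magnetic sorting and sequenced as 1 droplet library (10x, 3′ v3.1) per condition, each from 3 pooled mice. Per the labels and the submitters' processing notes, the authors counted UMIs with Cell Ranger 6.0.2 against mm10, and used Seurat 5.0.1. The deposited counts are whole numbers of UMIs per gene and barcode, with no barcode under 500 UMIs, and were used as deposited. The study's own step of subtracting the mean of empty droplets, which gives values that are not whole, was not applied here.

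Cells passed with 1500 UMIs and 750 genes or more, the limits of the study (4961 control, 5423 *Maf* LSEC-KO). Doublets were scored with Scrublet through scanpy 1.11.5. Its automatic limit marked 0 cells, so the 225 and 308 highest-scoring cells were removed, at rates of 4.53% and 5.67% set by the number of barcodes in each library. Each library was clustered alone in Seurat 5.3.0 (2000 variable genes without the 10 genes described, 16 and 20 components, resolution 0.3). Clusters were named from marker lists. A marker counted toward another cell type only where at least 5% of the cells held it, at 3 times its median share over clusters or more, a rule set after seeing the data. The *Maf* LSEC-KO clusters 8 and 11, which mixed cell types, were left out.

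Intervals are exact Poisson (levels), exact conditional binomial (ratios) and Clopper-Pearson (shares). A gene counted as at least 2-fold apart when its ratio passed 2 and it had at least 10 CPM in either library and 20 UMIs over both. For a count of 0, a bound of 3 counts was used. For the likeness of genes, 5 was added to each CPM and genes under 20 CPM in every profile were left out. For the subtraction of LSEC RNA, the median ratio of 6 tracer genes was multiplied by each gene's LSEC level. The intervals were tested on simulated counts. Python 3.11.15, R 4.3.3, edgeR 4.0.16 (TMM factors only) and scipy 1.17.1 were used.

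The genes and gene lists were chosen with earlier results of these data known. Genes outside the 10 were named by rule: those at least 2-fold apart on each pathway list (at most 4 per direction), the direct partner chains and ligands, and the 3 most similar genes. *Il1a*, *Il6*, *Il13*, *Il3ra*, *Il11ra1*, *Il27ra* and *Jak1* were named outside it, with their values known. With 1 library per condition no p-value was computed. Alternatives covered filters, doublets, clustering, scaling, the central to portal order and the subtraction of LSEC RNA.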

Additional observations from a re-analysis of the deposited data

Results flagged for a closer look

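*Csf2rb2* differed in opposite directions in LSECs and in Kupffer cell-like cells. Its log2 ratio of *Maf* LSEC-KO over control was 2.44 (2.11 to 2.80) in LSECs, at 2.52 and 13.7 CPM, and -0.81 (-1.40 to -0.23) in Kupffer cell-like cells, at 37.4 and 21.3 CPM. The latter rest on 56 and 49 UMIs. The difference between the classes was not tested, since there was 1 library per condition. *Csf2rb*, its neighbour, had a log2 ratio of 0.10 in Kupffer cell-like cells.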

How the results depend on the processing

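Of the 10 genes, 2 were at least 2-fold higher in LSECs under every alternative run, and 5 were at least 2-fold lower, or 4 when doublets or cells with a *Vwf* UMI were kept, when cycling clusters were left out or when CPM were averaged over cells. The gene lost was *Il4ra*, whose log2 ratio ranged from -1.21 to -0.81. No direction changed in LSECs: *Kit* ranged from -2.60 to -2.34, *Il1r1* from -1.69 to -1.17, *Il6st* from -1.82 to -1.44, *Il13ra1* from -0.90 to -0.56, *Il13ra2* from -6.25 to -5.19, *Ifngr1* from 0.07 to 0.33, *Ifnar1* from 0.13 to 0.45, *Csf2rb* from 5.50 to 5.81 and *Csf2rb2* from 2.21 to 2.45. The sets without cycling, low-depth or stellate gene-bearing cells and with mixed clusters were chosen after seeing the data. Of the pathway genes, 12 in place of 4 were lower and 15 in place of 6 higher without a minimum of CPM and UMIs, which was applied to counts of genes only, and scaling to all genes' UMIs left 3 higher. With central landmarks alone, the central to portal log2 ratio in *Maf* LSEC-KO was 0.0047 in place of -0.42 for *Il1r1* and 0.0713 in place of -0.12 for *Il13ra1*, and the cause was not tested. In the immune classes 9 differences became 11 with doublets kept, of which 1 was higher and 10 were lower, and 7 with LSEC RNA subtracted. No paired analysis was possible because there was 1 library per condition, so differences between mice, pools and runs cannot be told apart from the genotype. At this depth a count of 0 allows up to 0.0910 CPM in control and 0.0767 CPM in *Maf* LSEC-KO LSECs.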
